A study of Mus musculus with 4 samples.

Results

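The genes described here are 10 genes of the pericellular and fibrillar matrix: the small leucine-rich proteoglycans *Dcn* (decorin), *Bgn* (biglycan), *Lum* (lumican), *Fmod* (fibromodulin), *Aspn* (asporin) and *Ogn* (osteoglycin), the large chondroitin sulfate proteoglycans *Vcan* (versican) and *Acan* (aggrecan), and the hyaluronan synthases *Has1* and *Has2*. They were taken as a fixed list of names, chosen with earlier results of these data known. The transcripts of the deposited RNA-seq table were assigned to them by gene position on the same strand of mm10. All 10 were found, among 25731 genes with an assigned transcript, and 22 of the 63759 transcripts in the table belong to them. Each gene is represented below by its transcript with the longest gene body unless stated otherwise, and coordinates are those of mm10.

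Total RNA of mouse embryonic fibroblasts (MEF) was sequenced in 4 libraries, 1 for each combination of genotype (*Hmga2*+/+ or *Hmga2*-/-) and treatment (Ctrl or TGFB1). *Hmga2* encodes an architectural chromatin protein, and the study asked how far transcription induced by TGFB1 depends on it. All cells came from C57BL/6 embryos at embryonic day 15.5, labelled as whole embryo although head, limbs and internal organs had been removed. They were immortalized, with SV40 according to the study's methods. All were kept overnight in 1% FCS, and then for 24 h with human recombinant TGFB1 at 10 ng/ml in the TGFB1 groups or with water in the Ctrl groups. The *Hmga2*-/- cells came from *Hmga2*-deficient embryos, and their genotype label reads Hmga-/-. How many embryos contributed to a library, and whether duplicate cultures were pooled, is not given in the sources used here. With 1 library per group, no difference reported here has a replicate check. The 95% intervals are Poisson intervals for a level and exact binomial intervals for a ratio of reads unless another kind is named. They cover counting error only, and reads without molecular identifiers are not independent molecules.

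Small leucine-rich proteoglycans are secreted proteins whose leucine-rich core binds fibrillar collagen and steers fibril assembly, and several of them also bind TGF-beta. Versican and aggrecan are lecticans, which carry many chondroitin sulfate chains and bind hyaluronan through their amino-terminal domain, so that hyaluronan, lectican and link protein build a hydrated coat around cells. Hyaluronan itself is a plain sugar polymer that hyaluronan synthases extrude through the plasma membrane. TGF-beta is a classical inducer of matrix production in fibroblasts.

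The libraries held 56140000 to 57300000 mapped reads, a depth recovered from the RPKM values of short transcripts. A count of 0 allows up to 3 reads, or 0.0524 to 0.0534 RPKM for a transcript of 1000 bases. *Hmga2* had 14.8 RPKM in *Hmga2*+/+ Ctrl and 40.7 in *Hmga2*+/+ TGFB1, and 0 reads in both *Hmga2*-/- libraries. The TGFB1 response genes *Ctgf*, *Smad7*, *Skil* and *Acta2*, used as a treatment check, all rose at least 1.5-fold in both genotypes. *Ctgf* and *Acta2* were also higher in *Hmga2*-/- than in *Hmga2*+/+ cells, by log2 0.915 and 1.605 in Ctrl and 1.055 and 1.503 on TGFB1. *Smad7* and *Skil* stayed within 1.5-fold between the genotypes. The cell type label was checked against marker lists: all 10 fibroblast markers reached 1 RPKM in at least 1 library, with summed levels of 2012.6 to 2423.3 RPKM, while all 6 muscle markers stayed under 0.1 RPKM. Other cell type lists had levels well below that of the fibroblast list: summed RPKM per library were at most 3.07 for adipocyte, 1.21 for epithelial, 2.0 for macrophage and 5.09 for neural markers. The endothelial list summed to 3.89 to 8.16 RPKM, carried by *Kdr* and *Tek*, with *Pecam1* and *Cdh5* at or under 0.048 RPKM.

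In unstimulated cells 3 small leucine-rich proteoglycans dominated the group and the 2 hyaluronan synthases and *Acan* were nearly silent (RPKM is a level scaled for transcript length and for the reads mapped in the library, so it can be compared between genes). In *Hmga2*+/+ Ctrl the order from highest to lowest was *Bgn*, *Aspn*, *Ogn*, *Vcan*, *Dcn*, *Fmod*, *Lum*, *Has2*, *Has1* and *Acan*, from 293.6 down to 0.039 RPKM. Among the 11295 genes that reached 1 RPKM in at least 1 library, *Bgn* ranked 36th, *Aspn* 63rd and *Ogn* 74th by level in that library. The same order held in *Hmga2*-/- Ctrl. Neighbours whose intervals overlapped were *Has1* and *Acan* in *Hmga2*+/+ Ctrl and *Lum* and *Has2* in *Hmga2*-/- Ctrl. In both TGFB1 libraries *Vcan* stood above *Ogn*, and *Has2* had moved from rank 8 to rank 5, above *Fmod* and *Dcn*. In *Hmga2*-/- TGFB1 the intervals of *Ogn* and *Has2* overlapped, as did those of *Lum* and *Has1*.

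**Figure D1:**
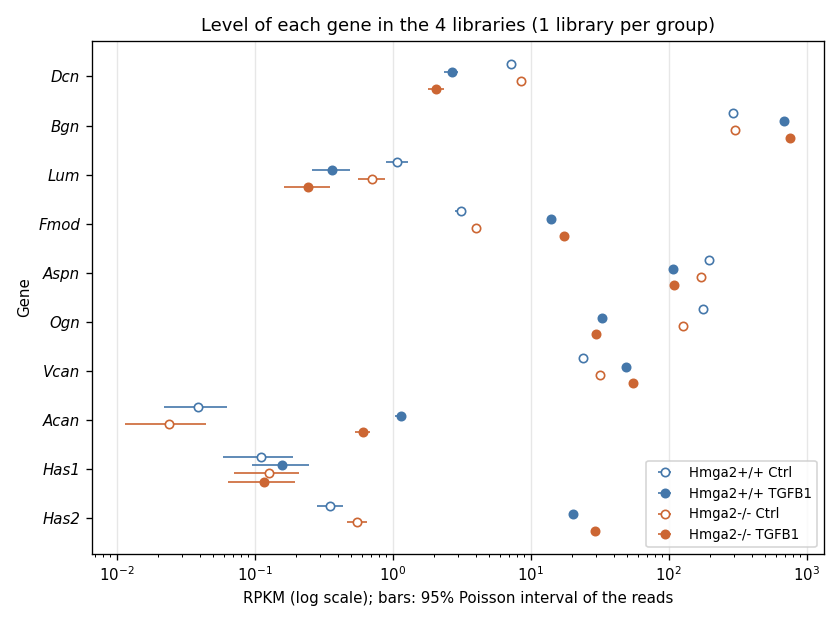
Level of each of the 10 genes in the 4 libraries, as RPKM on a log axis; open circles are Ctrl, filled circles TGFB1, blue *Hmga2*+/+, orange *Hmga2*-/-, and the bars are 95% Poisson intervals of the reads. The filled circles lie to the right of the open ones for *Bgn*, *Fmod*, *Vcan*, *Acan* and *Has2*, to the left for *Dcn*, *Lum*, *Aspn* and *Ogn*, and the intervals of all 4 libraries overlap for *Has1*.

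The start regions of the 4 genes with the highest levels in Ctrl are shown so that those that rose on TGFB1 can be compared with those that fell. Each line gives the 250 bases before the start site in RefSeq (GRCm38.p6), read 5′ to 3′ on the strand of the gene. Capitals mark matches, on either strand, to the core promoter motif TATAAA, the AP-1 motif TGACTCA, the SMAD motif CAGACA, the Sp1 motif GGGCGG or the TEAD motif GGAATG, and overlapping matches run together. *Bgn* (chrX:73483351-73483600, + strand) and *Vcan* (chr13:89742513-89742762, - strand) rose, and *Aspn* (chr13:49544193-49544442, + strand) and *Ogn* (chr13:49607765-49608014, + strand) fell.
Bgn: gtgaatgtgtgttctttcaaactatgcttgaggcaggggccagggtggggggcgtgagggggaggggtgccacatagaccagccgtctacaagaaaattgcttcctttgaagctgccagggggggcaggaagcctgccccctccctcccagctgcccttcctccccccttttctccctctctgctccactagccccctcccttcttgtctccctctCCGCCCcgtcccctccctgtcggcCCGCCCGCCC
Vcan: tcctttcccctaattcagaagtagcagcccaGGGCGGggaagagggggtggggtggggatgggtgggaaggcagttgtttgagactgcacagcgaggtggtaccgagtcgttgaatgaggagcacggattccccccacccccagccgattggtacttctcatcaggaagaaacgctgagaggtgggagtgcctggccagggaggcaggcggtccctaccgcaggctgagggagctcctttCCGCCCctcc
Aspn: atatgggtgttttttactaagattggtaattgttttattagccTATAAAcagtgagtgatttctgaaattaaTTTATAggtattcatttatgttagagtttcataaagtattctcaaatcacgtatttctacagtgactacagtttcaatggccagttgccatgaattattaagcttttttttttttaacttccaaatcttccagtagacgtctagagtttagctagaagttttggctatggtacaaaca
Ogn: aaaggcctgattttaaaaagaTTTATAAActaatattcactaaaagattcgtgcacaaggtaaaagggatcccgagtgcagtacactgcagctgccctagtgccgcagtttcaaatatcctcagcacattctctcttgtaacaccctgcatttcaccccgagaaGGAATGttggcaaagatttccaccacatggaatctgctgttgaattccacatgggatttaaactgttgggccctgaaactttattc

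The pair that rose had windows with more GC than the median window, and the pair that fell had windows with less. GC content was 64.4% for *Bgn* and 62.4% for *Vcan*, against 30.0% for *Aspn* and 42.0% for *Ogn*, where the median of all 32851 promoter windows of this length was 52.4%. By GC content, the window of *Bgn* lay at the 81.6th percentile, *Vcan* at the 77.5th, *Aspn* at the 1.47th and *Ogn* at the 15.9th. *Bgn* held 3 and *Vcan* 2 matches to GGGCGG, a motif found in 32.7% of all windows. In *Bgn*, 2 of the 3 overlap, at 10 and 6 bases before the start. *Aspn* and *Ogn* held 2 matches each to TATAAA, which 12.4% of all windows hold. All of these TATAAA matches lie more than 170 bases before the annotated start, the nearest 178 bases before it in *Aspn*, and the 2 in *Ogn* overlap on opposite strands. *Ogn* also held 1 match to GGAATG, found in 12.6% of windows. Of the other members with an entry, *Fmod*, which rose, had 51.2% GC and no match to any of the 5 motifs. *Acan*, which rose, had 74.4% GC with 3 matches to GGGCGG, of which 2 overlap, and 1 to GGAATG. *Has1* had 58.0% GC and 1 match to CAGACA. The motif TGACTCA was in none of the 7 windows and is in 4.46% of all windows, and CAGACA is in 17.1%. A match describes letters, not a bound site. *Dcn*, *Lum* and *Has2* had no entry.

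TGFB1 split the 10 genes. In *Hmga2*+/+ cells, 5 rose at least 1.5-fold (*Bgn*, *Fmod*, *Vcan*, *Acan*, *Has2*) and 4 fell at least 1.5-fold (*Dcn*, *Lum*, *Aspn*, *Ogn*). Of all 25731 genes, 11.7% rose and 19.2% fell by that measure, and of the 11295 genes with 1 RPKM or more in some library 12.1% rose and 17.5% fell. In *Hmga2*-/- cells 5 rose and 4 fell as well, against 12.9% and 18.3% of all genes and 13.8% and 15.8% of the genes with 1 RPKM. Since the members were chosen with earlier results of these data known, the counts beside these shares are no test of the list. The 2 comparisons share no library, and they shared all 5 of the genes that rose and all 4 of those that fell. The share of all genes called alike in both genotypes is not given here, so nothing particular to the members is read from this overlap. *Has1* passed in neither comparison and is the only member that stayed under 1 RPKM in all 4 libraries. The median log2 change of the 10 genes was 0.78 in *Hmga2*+/+ and 0.34 in *Hmga2*-/- cells, beside 0 in both over all genes. In bulk RNA, fewer cells that express a gene and less of its RNA per cell cannot be told apart.

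**Figure D2:**
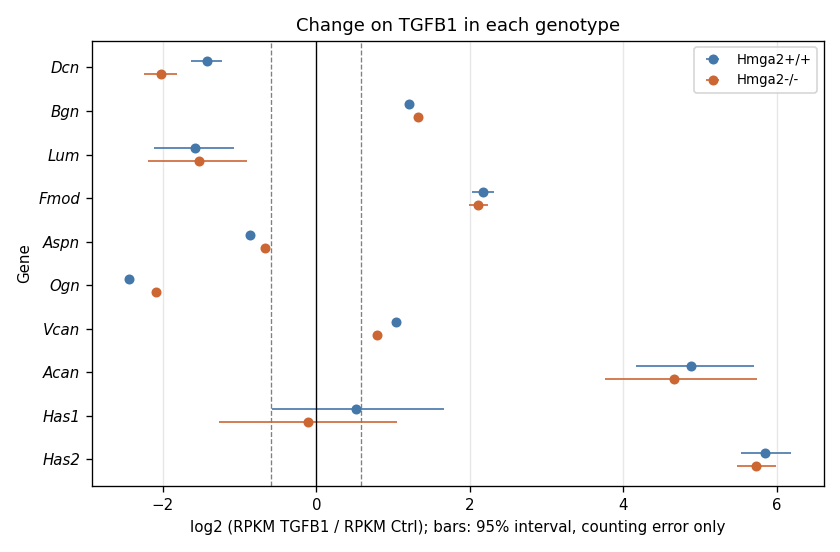
Log2 ratio of RPKM in TGFB1 over Ctrl for each gene, in *Hmga2*+/+ (blue) and *Hmga2*-/- cells (orange), with 95% intervals that cover counting error only; dashed lines mark 1.5-fold. *Has2* at 5.85 and 5.73 and *Acan* at 4.88 and 4.67 lie farthest to the right, *Ogn* at -2.45 and -2.08 and *Dcn* at -1.43 and -2.03 lie to the left, and the points of the 2 genotypes lie farthest apart for *Has1* and *Dcn*.

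*Bgn*, a class I small leucine-rich proteoglycan with a pair of chondroitin or dermatan sulfate chains (ENSMUSG00000031375, chrX:73483601-73495936, + strand), was the most abundant member in every library. It had 293.6 RPKM in *Hmga2*+/+ Ctrl, 680.6 in *Hmga2*+/+ TGFB1, 304.0 in *Hmga2*-/- Ctrl and 760.5 in *Hmga2*-/- TGFB1. Both TGFB1 libraries stand above both Ctrl libraries. The rise was 2.32-fold (log2 1.21, 1.20 to 1.23) in *Hmga2*+/+ and 2.50-fold (log2 1.32, 1.31 to 1.34) in *Hmga2*-/- cells. With 680.6 RPKM it ranked 15th of the 11295 genes in *Hmga2*+/+ TGFB1. A shorter transcript of 1763 bases had 82.2, 166.2, 77.5 and 168.6 RPKM in *Hmga2*+/+ Ctrl, *Hmga2*+/+ TGFB1, *Hmga2*-/- Ctrl and *Hmga2*-/- TGFB1, with log2 changes of 1.02 and 1.12. Another, of 1476 bases, had 97.8, 198.2, 92.5 and 201.3 RPKM in the same order, with log2 changes of 1.02 and 1.12.

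*Dcn*, a class I relative of *Bgn* with 1 such chain (ENSMUSG00000019929, chr10:97479500-97518163, + strand), moved the other way. Its levels were 7.20, 2.68, 8.46 and 2.07 RPKM in *Hmga2*+/+ Ctrl, *Hmga2*+/+ TGFB1, *Hmga2*-/- Ctrl and *Hmga2*-/- TGFB1, the order used for all 4-value series below. It fell 2.69-fold (log2 -1.43, -1.63 to -1.23) in *Hmga2*+/+ and 4.08-fold (log2 -2.03, -2.25 to -1.82) in *Hmga2*-/- cells. The ratio of *Bgn* to *Dcn* levels was thus 40.8 and 254 in *Hmga2*+/+ cells without and with TGFB1, and 35.9 and 367 in *Hmga2*-/- cells. *Dcn* is often used as a fibroblast marker. By level among the 11295 genes, its percentile was 52.3 in *Hmga2*+/+ Ctrl and 57.75 in *Hmga2*-/- Ctrl. On TGFB1 it was 25.1 in *Hmga2*+/+ and 19.3 in *Hmga2*-/- cells.

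*Aspn* (ENSMUSG00000021388, chr13:49544443-49567562, + strand) is the third class I member, a protein with an aspartate repeat that binds collagen and TGF-beta. It had 196.6, 108.2, 172.7 and 109.0 RPKM. The TGFB1 libraries lie within 1 RPKM of each other and below both Ctrl libraries. The fall was 1.82-fold (log2 -0.86, -0.89 to -0.83) in *Hmga2*+/+ and 1.58-fold (log2 -0.66, -0.69 to -0.63) in *Hmga2*-/- cells, the smallest among the 9 members that passed 1.5-fold.

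*Ogn*, a class III member also called mimecan (ENSMUSG00000021390, chr13:49608071-49624500, + strand), fell most in *Hmga2*+/+ cells. Its levels were 178.2, 32.7, 126.2 and 29.8 RPKM, a 5.45-fold fall (log2 -2.45, -2.49 to -2.40) in *Hmga2*+/+ and a 4.24-fold fall (log2 -2.08, -2.13 to -2.04) in *Hmga2*-/- cells. Among the 11295 genes this fall ranked 88th and 172nd from the lowest. *Aspn* and *Ogn* had similar levels in Ctrl, with ratios of 1.10 and 1.37, and ratios of 3.31 and 3.66 on TGFB1.

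The class II members, keratan sulfate proteoglycans that bind collagen fibrils, went opposite ways. *Fmod* (ENSMUSG00000041559, chr1:134037515-134048277, + strand) had 3.11, 14.0, 4.04 and 17.4 RPKM and rose 4.50-fold (log2 2.17, 2.03 to 2.31) and 4.30-fold (log2 2.11, 1.98 to 2.23). *Lum* (ENSMUSG00000036446, chr10:97565501-97572703, + strand), which shares a collagen binding site with fibromodulin, had 1.08, 0.363, 0.708 and 0.246 RPKM, from 126, 43, 83 and 29 reads. It fell 2.99-fold (log2 -1.58, -2.12 to -1.07) and 2.88-fold (log2 -1.53, -2.19 to -0.90). With 1 RPKM added to every value the log2 changes were -0.61 and -0.46, and the second no longer reached 1.5-fold.

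Summed over the 6 small leucine-rich proteoglycans, the level was 679.7, 838.6, 616.2 and 919.0 RPKM. The sum moved less than its makeup. *Bgn* made up 43.2% of it in *Hmga2*+/+ Ctrl and 81.2% in *Hmga2*+/+ TGFB1, and 49.3% and 82.8% in *Hmga2*-/- cells. *Ogn* went from 26.2% to 3.90% and from 20.5% to 3.24%, and *Aspn* from 28.9% to 12.9% and from 28.0% to 11.9%.

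*Vcan* encodes the lectican of loose and growing connective tissue (ENSMUSG00000021614, chr13:89655310-89742512, - strand). Its longest transcript had 24.1, 49.4, 32.1 and 55.6 RPKM. Both TGFB1 libraries lie above both Ctrl libraries. The rise was 2.05-fold (log2 1.04, 1.01 to 1.06) in *Hmga2*+/+ and 1.73-fold (log2 0.79, 0.77 to 0.82) in *Hmga2*-/- cells.

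Versican is spliced into 4 full-length forms that differ in the exons coding for the attachment regions of the chondroitin sulfate chains: V0 holds GAG alpha and GAG beta, V1 only beta, V2 only alpha and V3 neither. All 4 are in the table, so read densities of the GAG alpha exon (chr13:89702918-89705797), the GAG beta exon (chr13:89688285-89693501) and the exons of all 4 forms could be had by subtraction. The GAG alpha exon had 27.2, 55.5, 32.3 and 52.1 RPKM. The GAG beta exon had 25.3, 52.5, 34.6 and 60.9 RPKM, and the exons of all forms 20.4, 41.6, 29.0 and 51.7. Both alternative exons were thus read at least as densely as the shared ones in every library, and alpha was the denser of the pair in *Hmga2*+/+ and beta in *Hmga2*-/- cells.

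Relative to the shared exons, the GAG alpha exon was less dense in *Hmga2*-/- cells. Its density over that of the shared exons was 1.33 (1.28 to 1.39) in *Hmga2*+/+ Ctrl and 1.34 (1.30 to 1.37) in *Hmga2*+/+ TGFB1. It was 1.11 (1.07 to 1.15) in *Hmga2*-/- Ctrl and 1.01 (0.980 to 1.04) in *Hmga2*-/- TGFB1. The *Hmga2*-/- values lie below the *Hmga2*+/+ values without overlap of the counting intervals, by log2 -0.26 in Ctrl and -0.41 on TGFB1. For the GAG beta exon the ratios were 1.24, 1.26, 1.19 and 1.18, and the genotype differences log2 -0.06 (-0.13 to 0.01, from a normal approximation) in Ctrl and -0.10 (-0.15 to -0.05) on TGFB1. None of these differences reached 1.5-fold, and read density also varies along a transcript.

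**Figure D3:**
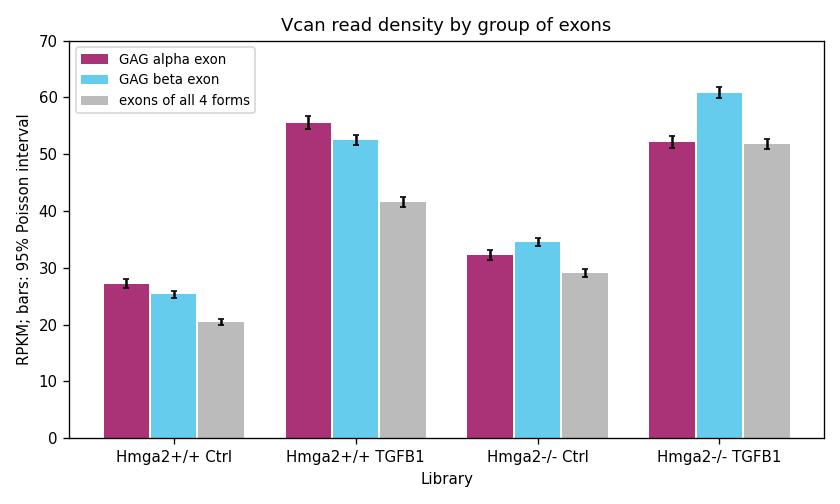
Read density of *Vcan* in RPKM for the GAG alpha exon, the GAG beta exon and the exons common to the 4 full-length forms, per library, with 95% Poisson intervals. The alpha bar is the tallest of its library in both *Hmga2*+/+ libraries and level with the common exons in *Hmga2*-/- TGFB1, at 52.1 and 51.7 RPKM.

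*Acan*, the lectican of cartilage (ENSMUSG00000030607, chr7:79053483-79115099, + strand), went from close to none to a low level. It had 0.039, 1.15, 0.024 and 0.609 RPKM, from 16, 482, 10 and 254 reads. That is a 29.5-fold rise (log2 4.88, 4.17 to 5.70) in *Hmga2*+/+ and a 25.4-fold rise (log2 4.67, 3.76 to 5.74) in *Hmga2*-/- cells, the 27th and 31st largest of the 11295 genes. The size of this rise rests on the 16 and 10 reads in Ctrl: with 0.1 RPKM added to every value the log2 changes were 3.17 and 2.52, and with 1 RPKM added 1.05 and 0.65. Versican still exceeded it 43.0-fold in *Hmga2*+/+ TGFB1 and 91.4-fold in *Hmga2*-/- TGFB1. Beside it, the 8 chondrocyte markers summed to 3.83, 6.08, 2.49 and 7.46 RPKM. Of these, 1 was higher and 2 lower past 1.5-fold in *Hmga2*+/+ and 3 higher and 2 lower in *Hmga2*-/- cells, the lower ones having at most 4 reads in any library. Of all genes, 11.7% and 12.9% were higher and 19.2% and 18.3% lower. *Matn3* was higher in both genotypes, and *Sox9* and *Col2a1* passed 1.5-fold in *Hmga2*-/- cells only. *Sox9*, the cartilage transcription factor, had 3.0, 4.43, 1.68 and 4.96 RPKM and *Matn3* 0.202, 0.890, 0.212 and 1.69. *Col2a1*, the cartilage collagen, had 0.361, 0.438, 0.383 and 0.643 RPKM, from 102, 126, 109 and 184 reads. *Col9a1* and *Matn1* were at or under 0.009 RPKM. *Snorc* had 0 reads. The part of cartilage cells in the rise of *Acan* was not tested.

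Of the hyaluronan synthases, *Has2* responded and *Has1* did not pass 1.5-fold. *Has2* (ENSMUSG00000022367, chr15:56665627-56694546, - strand), the main hyaluronan synthase of embryonic mesenchyme, had 0.353, 20.3, 0.554 and 29.3 RPKM, from 84, 4939, 133 and 7077 reads. Both TGFB1 libraries lie far above both Ctrl libraries. The rise was 57.6-fold (log2 5.85, 5.54 to 6.18) in *Hmga2*+/+ and 53.0-fold (log2 5.73, 5.48 to 5.98) in *Hmga2*-/- cells, the 16th and 19th largest among the 11295 genes. With 1 RPKM added to every value the log2 changes were 3.98 and 4.29. By level it went from the 0.885th to the 81.6th percentile of those genes in *Hmga2*+/+ and from the 1.43rd to the 87.8th in *Hmga2*-/- cells.

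*Has1* (ENSMUSG00000003665, chr17:17843326-17855188, - strand) had 0.111, 0.159, 0.127 and 0.118 RPKM, from 13, 19, 15 and 14 reads. The 4 intervals overlap. Its log2 change was 0.52 (-0.58 to 1.66) in *Hmga2*+/+ and -0.11 (-1.27 to 1.04) in *Hmga2*-/- cells, so changes inside those intervals were not detectable at this depth. *Has2* exceeded *Has1* 3.18-fold and 4.36-fold in Ctrl, and 128-fold and 249-fold on TGFB1. *Has3*, the third synthase, had 10, 11, 20 and 11 reads.

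Fewer of the 10 genes passed 1.5-fold between the genotypes than on TGFB1. The *Hmga2*-/- and *Hmga2*+/+ cells came from different embryos, so genotype cannot be told apart from other differences between the cultures. In Ctrl, 1 was at least 1.5-fold higher in *Hmga2*-/- than in *Hmga2*+/+ cells (*Has2*) and 2 were lower (*Lum*, *Acan*), against 8.44% higher and 8.83% lower of all genes and 2.93% and 2.70% of the genes with 1 RPKM. With TGFB1, 0 were higher and 1 was lower (*Acan*), against 9.37% higher and 8.27% lower of all genes and 3.84% and 2.75% of those with 1 RPKM. Each count is within 2 genes of what those shares of 10 genes would give, so nothing particular to the members is read from it. The median log2 difference of the members was 0.12 in Ctrl and -0.06 on TGFB1, beside 0 over all genes. Each library also enters a TGFB1 comparison, so the genotype and treatment ratios of a gene are not independent.

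*Acan* was the member that passed in both treatments: 1.62-fold lower in *Hmga2*-/- Ctrl (log2 -0.70, -1.99 to 0.54, an interval that holds 0) and 1.89-fold lower in *Hmga2*-/- TGFB1 (log2 -0.92, -1.14 to -0.69). *Has2* was 1.57-fold higher in *Hmga2*-/- Ctrl (log2 0.65, 0.25 to 1.06) and 1.44-fold higher on TGFB1 (log2 0.53, 0.48 to 0.58). *Lum* was 1.53-fold lower in Ctrl (log2 -0.61, -1.03 to -0.20), with a log2 difference of -0.56 (-1.29 to 0.15) on TGFB1. The calls on *Lum* and *Has2* in Ctrl lie just past the threshold and were lost when 0.1 RPKM was added to every value, as was that on *Acan* in Ctrl.

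The other 7 members were within 1.5-fold in both treatments. *Ogn* came closest in Ctrl, with a log2 difference of -0.50 (-0.53 to -0.47), and was at -0.14 on TGFB1. *Vcan* was at 0.41 and 0.17, *Fmod* at 0.38 and 0.31, *Bgn* at 0.05 and 0.16, and *Aspn* at -0.19 and 0.01. *Dcn* had log2 differences of opposite sign, 0.23 (0.09 to 0.37) in Ctrl and -0.37 (-0.63 to -0.11) on TGFB1. *Has1* had 0.19 and -0.43, both with intervals that hold 0.

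**Figure D4:**
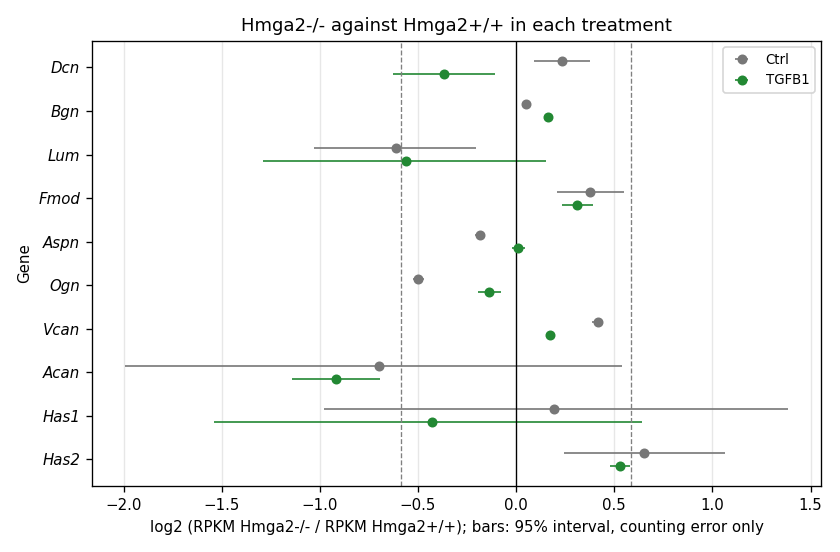
Log2 ratio of RPKM in *Hmga2*-/- over *Hmga2*+/+ cells for each gene, in Ctrl (grey) and TGFB1 (green), with 95% intervals that cover counting error only; dashed lines mark 1.5-fold. Only the points of *Acan* lie beyond the lower dashed line in both treatments, at -0.70 and -0.92, and *Has2* lies near the upper line at 0.65 and 0.53.

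The size of the TGFB1 response was then compared between genotypes. The log2 response in *Hmga2*-/- minus that in *Hmga2*+/+ cells was -0.60 (-0.89 to -0.31, normal approximation) for *Dcn*, which fell further in *Hmga2*-/- cells. It was 0.36 (0.30 to 0.43) for *Ogn* and 0.20 (0.16 to 0.24) for *Aspn*, which fell less. *Vcan* rose less, with -0.24 (-0.28 to -0.21), and *Bgn* rose more, with 0.11 (0.09 to 0.13). These 5 of 10 members had counting intervals that exclude 0, as did 32.7% of the 15052 genes with reads in every library, and the median size of the difference was 0.21 over the members and 0.19 over those genes. For *Has2* the difference was -0.12 (-0.52 to 0.28), for *Acan* -0.22 (-1.38 to 0.95), for *Fmod* -0.06 (-0.25 to 0.12) and for *Lum* 0.05 (-0.74 to 0.84).

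Several members lie beside other proteoglycan genes, and the responses of these neighbours were set beside them, a choice made after their values were seen. On chromosome 13, *Ecm2*, *Aspn*, *Omd* and *Ogn* follow each other on the + strand and all 4 fell in both genotypes. *Omd* (osteomodulin) had 12.3, 4.32, 18.0 and 6.30 RPKM and log2 changes of -1.50 and -1.51, and *Ecm2*, a matrix protein of the same repeat family, -2.65 and -2.34. The next genes downstream, *Nol8* and *Iars*, rose, with log2 changes of 1.23 and 1.21 in *Hmga2*+/+ cells. On chromosome 10, *Dcn* and *Lum* are followed by *Kera* (keratocan) and *Epyc* (epiphycan), which had at most 8 reads in any library. *Kera* had 3, 1, 7 and 3 reads, with intervals that hold 0, and *Epyc* had 8, 0, 4 and 0 reads. On chromosome 1, *Prelp*, a relative of *Fmod*, fell with log2 changes of -3.61 (-4.59 to -2.75) and -2.83 while *Fmod*, on the opposite strand, rose. *Optc* (opticin), beside *Prelp*, had 21, 16, 32 and 18 reads and log2 changes of -0.42 and -0.84, with intervals that hold 0. *Hapln1*, the link protein gene beside *Vcan*, had 2.88, 2.74, 1.85 and 1.70 RPKM, log2 changes on TGFB1 of -0.07 and -0.12, and was lower in *Hmga2*-/- cells by log2 -0.64 in Ctrl and -0.69 on TGFB1.

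**Figure D5:**
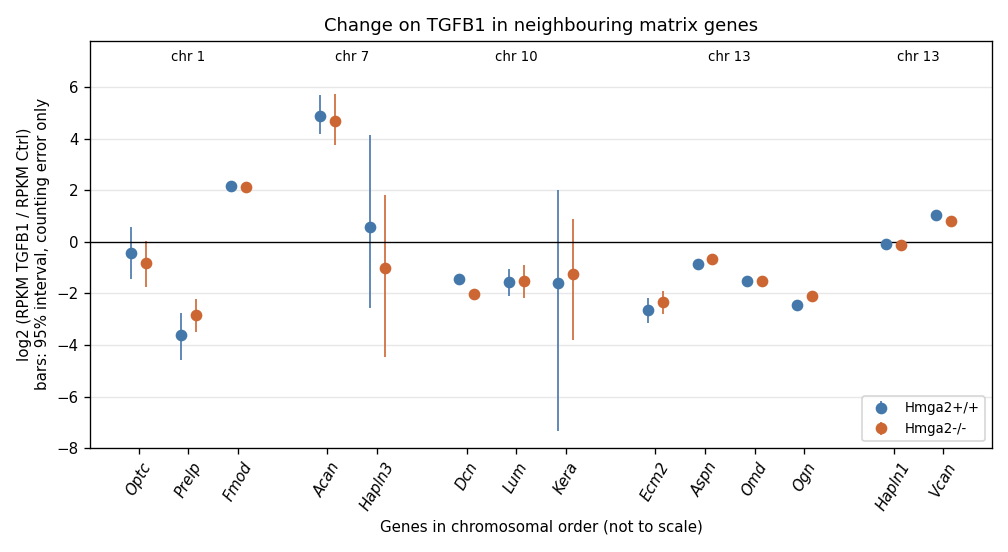
Log2 ratio of RPKM in TGFB1 over Ctrl for the members and adjacent matrix genes, in chromosomal order within each cluster and not to scale, in *Hmga2*+/+ (blue) and *Hmga2*-/- cells (orange), with 95% intervals that cover counting error only. The 4 genes from *Ecm2* to *Ogn* all lie below 0, *Prelp* and *Fmod* lie on opposite sides of it, *Kera* and *Hapln3* have wide intervals from few reads, and *Epyc*, with 0 reads in both TGFB1 libraries, is left out.

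Among the other genes of these families and pathways, many were close to silent, and each count is to be read beside the shares of all genes that rose (11.7% in *Hmga2*+/+ and 12.9% in *Hmga2*-/- cells) or fell (19.2% and 18.3%). Of the 11 other small leucine-rich proteoglycans listed, a list without *Optc*, 3 reached 1 RPKM in some library. Of these 3, 0 rose and 1 fell in *Hmga2*+/+ and 1 rose and 1 fell in *Hmga2*-/- cells, and the gene that fell was *Omd* in both. Over all 11, 0 were higher and 9 lower past 1.5-fold in *Hmga2*+/+ and 1 higher and 7 lower in *Hmga2*-/- cells, with median log2 changes of -1.58 and -1.25, but *Kera*, *Epyc*, *Chad* and *Nyx* had 8 reads or fewer in every library. Of 6 other lecticans and link proteins, only *Hapln1* reached 1 RPKM and it stayed within 1.5-fold on TGFB1. Over all 6, 0 were higher and 3 lower in *Hmga2*+/+ and 2 higher and 3 lower in *Hmga2*-/- cells. However, 4 of the 6 stayed under 0.1 RPKM in every library. Of 10 further matrix and cell surface proteoglycans, 4 were higher and 3 lower in *Hmga2*+/+ and 4 higher and 1 lower in *Hmga2*-/- cells, and of the 6 with 1 RPKM, 4 rose and 0 fell in each genotype. The 4 that rose were shared: *Prg4* (lubricin) with log2 changes of 4.57 and 4.18, *Esm1* with 4.19 and 2.71, *Spock3* with 1.51 and 1.05, and *Cspg4* (NG2) with 1.00 and 1.42. *Prg4* and *Spock3* were also lower in *Hmga2*-/- cells in both treatments, by log2 -0.70 and -1.09 for *Prg4* and -1.21 and -1.68 for *Spock3*.

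Of 18 other genes for hyaluronan synthesis, turnover and binding, 9 reached 1 RPKM. Of these 9, 2 rose and 4 fell in *Hmga2*+/+ and 1 rose and 3 fell in *Hmga2*-/- cells, where 12.1% and 13.8% of all genes with 1 RPKM rose and 17.5% and 15.8% fell. Over all 18, 4 were higher and 7 lower in *Hmga2*+/+ and 2 higher and 6 lower in *Hmga2*-/- cells, with median log2 changes of -0.01 and -0.13, calls that include *Lyve1*, *Stab1* and *Stab2* with 18 reads or fewer in every library. *Cd44*, the main hyaluronan receptor, rose with *Has2*: it had 13.4, 59.6, 18.7 and 86.7 RPKM and log2 changes of 2.16 and 2.21. *Ptx3*, which cross-links hyaluronan through inter-alpha-trypsin inhibitor heavy chains, fell with -0.79 and -1.25. *Itih2*, which encodes such a heavy chain, fell with -0.72 and -0.78, and *Itih5* fell with -1.56 and -1.95. *Itih2* was also lower in *Hmga2*-/- cells in both treatments, by log2 -0.74 in Ctrl and -0.80 on TGFB1.

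Among the enzymes that build the chondroitin and dermatan sulfate chains, single genes rose or fell. Of 18 genes of this list with 1 RPKM, 2 rose and 4 fell in *Hmga2*+/+ and 5 rose and 2 fell in *Hmga2*-/- cells, against the same shares of 12.1% and 13.8% higher and 17.5% and 15.8% lower. Over all 22 genes, 4 were higher and 4 lower in *Hmga2*+/+ and 6 higher and 3 lower in *Hmga2*-/- cells, with median log2 changes of -0.15 and 0.03. *Chst11*, the chondroitin 4-O-sulfotransferase, had 1.10, 5.00, 1.01 and 7.10 RPKM and rose with log2 changes of 2.19 and 2.82. *Ust*, which sulfates uronic acid at its 2-O position, rose with 0.97 and 0.93. *Csgalnact1*, which starts the chondroitin chain, fell with -0.74 and -0.62 and *Chst12*, another 4-O-sulfotransferase, with -0.77 and -0.63. Of 9 genes that supply UDP sugars, 3 rose and 1 fell in each genotype: *Gfpt2*, *Gnpnat1* and *Slc35d1* rose and *Ugp2* fell, with log2 changes of -0.87 and -0.86.

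The genes whose profile over the 4 libraries was most like that of each member were then sought among 10994 genes, by the Euclidean distance of log2 RPKM centred on its mean. The profile is a description over 4 values. *Has2* was nearest to *Adam12* (distance 0.50) and *Hbegf* (0.60), and *Acan* to *Prg4* (0.42), *Areg* (0.50) and *Spp1* (0.90). *Fmod* was nearest to *Tm4sf1* (0.14), *Fbln2* (0.16) and *Btbd11* (0.18), and *Ogn* to *Fbxo2* (0.16), *Abi3bp* (0.17) and *Tle2* (0.21). *Dcn* was nearest to *Rspo2* (0.07), which had 33.0, 13.1, 40.3 and 9.92 RPKM, then to *Rab3d* (0.14) and *Plscr2* (0.15). *Lum* was nearest to 9530018H14Rik (0.07), *Il1rn* (0.13) and *Pdlim4* (0.15), and *Bgn* to *Pfkl* (0.05), *Ptprj* (0.06) and *Rcl1* (0.07). *Vcan* was nearest to *Ldlrad4* (0.05), *Mrps18b* (0.05) and *Zfp593* (0.08), and *Aspn* to *Fam173a* (0.01), *Rab43* (0.02) and *Glb1* (0.03).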

How the data were processed

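RNA-seq of 4 MEF libraries was analyzed from the deposited table. Reads had been trimmed by the authors (Trimmomatic), aligned to the mm10 genome (HISAT2 2.1.0) and counted by HOMER over UCSC known genes on the + strand of each transcript, over exons according to the file header and over genes according to the study's methods. The deposited values are RPKM, with a transcript length in bases given by the authors. No per-sample column was left unused.

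Transcripts were named by at least 50% overlap with a GENCODE M21 gene on the same strand (57708 of 63759, 90.5%), and *Ctgf* and *Tmem2* were matched by RefSeq synonyms. The longest gene body stood for each gene. Depth and reads were recovered from RPKM of transcripts under 1000 bases with under 60 reads, of which 100% gave whole reads within 0.1 read. Values of 0 were set to 0.001 RPKM for ratios. A gene was called at 1.5-fold or more. With 1 library per group no p-value was computed. Vcan exon reads were differences between transcripts. The 1.5-fold call and the recovery of depth were tested on simulated reads with counting error only, and the other steps were not. Python 3.11.15, numpy 2.4.6, pandas 2.3.3, scipy 1.17.1 and matplotlib 3.10.9 were used.

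The 10 genes, the lists and the rule for naming genes were chosen with earlier results of these data known. Named were all members, list genes that passed 1.5-fold in the same direction in both genotypes or both treatments and reached 1 RPKM, defining marker genes, *Hmga2*, the treatment check genes and, per member with 1 RPKM, the 3 genes nearest in profile with at least 10 reads in each library. Some genes that this rule names are not reported here. *Ecm2*, *Prelp*, *Optc*, *Has3*, *Kera*, *Epyc*, *Hapln3*, *Chad*, *Nyx*, *Lyve1*, *Stab1*, *Stab2*, *Nol8* and *Iars* were named in addition after their values were seen. Alternatives were pseudocounts of 1 and 0.1 RPKM, rescaling by the median ratio, the transcript with the highest mean, a 2-fold threshold and a filter at 1 RPKM.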

Additional observations from a re-analysis of the deposited data

Results flagged for a closer look

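The log2 values of *Has1* on TGFB1 had opposite signs in the 2 genotypes: its log2 response in *Hmga2*-/- minus that in *Hmga2*+/+ cells was -0.62 (-2.09 to 0.84, counting error only). The 2 responses were 0.52 and -0.11, from 13 to 19 reads per library, neither reached 1.5-fold, and both intervals hold 0, so neither has a direction at this depth. With 1 library per group the difference was not tested.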

How the results depend on the processing

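The counts of members that rose or fell on TGFB1 stayed within 1.5 times of the reported counts under all alternatives, and no member's change reversed among 160 recomputed values, of which 132 stayed within their counting interval. Counts between genotypes, which are 0 to 2, did not. With a pseudocount of 1 RPKM, 0 members were higher and 0 lower in Ctrl and 0 lower on TGFB1. With 0.1 RPKM, 0 were higher and 0 lower in Ctrl. After rescaling by the median ratio, 1 was lower in Ctrl, since *Lum* went from -0.61 to -0.58. At 2-fold, 0 were higher and 0 lower in Ctrl and 0 lower on TGFB1. Pseudocounts shrink the ratios of *Acan* and *Has2*, which are low in Ctrl, and of *Lum*, which is lowest on TGFB1. With 1 RPKM the log2 rise of *Acan* was 1.05 and 0.65 in place of 4.88 and 4.67. On TGFB1 in *Hmga2*-/- cells *Lum* then had -0.46 and missed 1.5-fold. *Has1* in *Hmga2*+/+ cells passed with 0.61 after rescaling. No paired analysis was possible because each group has 1 library. Depth limits *Has1*, *Lum* and, in Ctrl, *Acan*, which had under 20 reads there.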
